A study of Mus musculus with 9 samples.

Results

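Tnni3, Tagln and Myo3b are 3 genes whose proteins bind or regulate actin filaments, the first of them in the sarcomere of heart muscle. Their RNA on tagged ribosomes differed widely between striatal precipitates of control mice and of mice with a deletion of the neurotrophin receptor TrkB. The 3 genes were chosen by name, under a heading of muscle-type contractile genes, as genes that change after TrkB deletion in these same libraries. The values that chose them are thus the differences between the TrkB-deleted libraries and the controls. Those differences are given below as a description, with no test. The 3 genes are 3 of 47729 Ensembl identifiers in the deposited tables, and all 3 were among the 13695 genes with at least 1 CPM (the reads of a gene scaled to the total of its library) in at least 3 libraries, the set that was tested.

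The libraries hold RNA from polyribosomes of the dorsal striatum of C57BL/6 mice at P28, precipitated through the hemagglutinin (HA) tag of the RiboTag allele, which Cre recombinase switches on. There were 3 groups of 3 libraries: D1-Cre-flTrkB-RT mice with stereotypy, D1-Cre-flTrkB-RT mice without stereotypy, and control D1-Cre-RT mice. All 9 libraries therefore carry D1-Cre, driven by the D1 dopamine receptor gene, and the RiboTag allele, and the 6 libraries of the first pair of groups also carry floxed TrkB. D1-Cre acts in every cell that has expressed it, and the labels call the material enriched for D1 medium spiny neurons (MSNs), the output neurons of the direct pathway, rather than pure. The libraries of a group are biological triplicates by their labels, which name neither animals nor a pooling of them, and no library of RNA before precipitation was analysed here.

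Troponin I, the product of the Tnni genes, is the inhibitory subunit of the troponin complex on the thin filament of striated muscle, where it holds back the actin-myosin interaction until calcium binds troponin C. Tnni3 encodes the cardiac form. Tagln encodes transgelin (SM22), an actin-binding protein of the calponin family and a common marker of smooth muscle, and Myo3b encodes a class III unconventional myosin, a motor with a kinase domain that is known from actin protrusions of sensory cells and is no part of a sarcomere. None of the 3 is a usual marker of MSNs.

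Windows around the RefSeq start sites (GRCm38.p6, 250 bases before the start and 50 after it) are shown for Tnni3 and Myo3b. They show what sequence stands at the starts of the gene that was higher after TrkB deletion and of one that was lower. Of the 3 members, these 2 matched the promoter set and Tagln did not, so its start could not be read for any motif. Capitals mark an E-box, the letters CANNTG, on either strand. The Tnni3 window lies at chr7:4522479-4522778 on the minus strand, and the Myo3b window lies at chr2:70038876-70039175 on the plus strand. The Tnni3 span in GENCODE M21, used below, reaches upstream beyond this window to 4524229, and a start there was not read.
Tnni3: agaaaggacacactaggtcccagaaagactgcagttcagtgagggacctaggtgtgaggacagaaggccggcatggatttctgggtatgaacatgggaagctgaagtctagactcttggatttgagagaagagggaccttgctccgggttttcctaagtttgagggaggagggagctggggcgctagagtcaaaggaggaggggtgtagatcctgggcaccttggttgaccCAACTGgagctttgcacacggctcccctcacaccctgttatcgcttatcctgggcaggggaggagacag
Myo3b: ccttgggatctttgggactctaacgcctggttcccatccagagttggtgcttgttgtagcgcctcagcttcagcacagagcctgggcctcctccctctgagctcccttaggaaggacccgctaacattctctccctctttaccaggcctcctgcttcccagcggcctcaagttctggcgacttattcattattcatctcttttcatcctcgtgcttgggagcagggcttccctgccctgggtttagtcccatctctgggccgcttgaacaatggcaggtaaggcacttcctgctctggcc

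The Tnni3 window held 1 E-box, 19 bases before the start, and the Myo3b window held none. An E-box stood in 72.3% of the 32851 windows of the same length. Neither window held the cAMP response element half-site TGACG (in 20.8% of all windows), the GATA element AGATAA (11.2%), the CArG box bound by serum response factor (1.63%) or the MEF2 element (3.19%), each sought on both strands, with overlaps between motifs allowed. GC content was 55.0% in the Tnni3 window and 56.3% in the Myo3b window, against a median of 52.7% over all windows. These matches describe letters only.

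Before the values of the members, the libraries themselves can be set out briefly. Totals ranged from 27103152 to 31117135 reads with stereotypy and from 35702420 to 40578512 reads without it, against 32615356 to 36535817 reads in controls. Every stereotypy library was thus smaller than every other library, and the part of depth in comparisons with that group was not tested. A count of 0 allows up to 0.0739 to 0.111 CPM (3 reads in a library, counting error only). Ntrk2, which encodes TrkB, averaged 39.6 CPM in stereotypy libraries and 18.9 CPM in libraries without stereotypy, against 397 CPM in controls. Summed markers of D1 MSNs, led by Drd1, lay between 2239 and 2295 CPM in stereotypy libraries and between 1514 and 1873 CPM in libraries without stereotypy, against 1797 to 2430 CPM in controls. Summed markers of D2 MSNs, the neighbouring indirect-pathway neurons, led by Penk, lay between 259 and 424 CPM, between 597 and 1050 CPM, and between 443 and 1433 CPM in the same order of groups. Control 3 stood apart with the highest sum of D2 markers and the lowest of D1 markers among the controls, so values without it are given where they bear on a member.

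Tnni3 (ENSMUSG00000035458, chr7:4518305-4524229, minus strand) was under 1 CPM in every control library and over 5 CPM in every TrkB-deleted library. It had 10.03, 8.90 and 6.57 CPM in the stereotypy libraries and 14.7, 7.81 and 5.87 CPM in the libraries without stereotypy, against 0.958, 0.849 and 0.491 CPM in the controls. Every deleted library lay above every control, and the lowest deleted library still held several times the level of the highest control. The reads behind these values numbered 735 over the stereotypy libraries and 1084 over the libraries without stereotypy, against 81 over the controls. Means were 8.50 ± 1.76 CPM with stereotypy and 9.45 ± 4.62 CPM without it, against 0.766 ± 0.244 CPM in controls (SD, n = 3 each), which are 11.1-fold and 12.3-fold the control mean. On the log2(CPM + 1) scale, which understates the change of low genes, the mean of both deleted groups exceeded control by 2.45 (SE 0.24), and by 2.34 without control 3.

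The comparison that did not choose the members is the one between the deleted groups, which share D1-Cre and floxed TrkB and are labelled by behaviour. They differed in remaining Ntrk2 as well, by 1.05 on the log2(CPM + 1) scale for stereotypy minus no stereotypy (limma adjusted p 0.0206). For Tnni3 the difference of stereotypy minus no stereotypy was -0.07 on the log2(CPM + 1) scale, with a 95% interval of -0.67 to 0.54 and an adjusted p of 0.900 (limma, Benjamini-Hochberg over all tested genes). The groups overlapped, with both the highest and the lowest deleted library in the group without stereotypy. Over all tested genes, 10.2% passed the 0.05 threshold in this comparison, 6.61% higher and 3.6% lower with stereotypy.

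Tagln (ENSMUSG00000032085, chr9:45929619-45936058, minus strand) stood the other way. It had 2.22, 2.02 and 1.22 CPM in the stereotypy libraries and 1.42, 1.48 and 1.70 CPM in the libraries without stereotypy, against 13.7, 9.59 and 28.3 CPM in the controls. All 6 deleted libraries lay within a narrow low band, while the controls were spread widely above it, with control 3 the highest. Means were 1.82 ± 0.531 CPM with stereotypy and 1.54 ± 0.146 CPM without it, against 17.2 ± 9.84 CPM in controls (SD, n = 3 each), so that 10.6% and 8.94% of the control mean remained. Reads totalled 158 and 177 in the deleted groups, against 1761 in controls. The mean of both deleted groups was below control by a log2 difference of -2.64 (SE 0.27), and of -2.23 without control 3.

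Between the deleted groups, Tagln differed by 0.14 on the log2(CPM + 1) scale for stereotypy minus no stereotypy, with a 95% interval of -0.55 to 0.82 and an adjusted p of 0.802 (limma). The libraries of the groups overlapped here too. In bulk precipitates like these, fewer cells of a type and less RNA per cell cannot be told apart, which holds for every level given here.

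Myo3b (ENSMUSG00000042064, chr2:70039126-70429198, plus strand) was also lower after deletion, but the deleted groups did not sit together. It had 4.01, 4.05 and 8.52 CPM in the stereotypy libraries and 1.99, 1.99 and 2.32 CPM in the libraries without stereotypy, against 18.4, 8.60 and 20.1 CPM in the controls. The groups did not overlap at any point, although stereotypy library 3 came within a small margin of control 2. Means were 5.53 ± 2.59 CPM with stereotypy and 2.10 ± 0.189 CPM without it, against 15.7 ± 6.22 CPM in controls (SD, n = 3 each), so that 35.2% and 13.3% of the control mean remained. Reads totalled 469 and 242 in the deleted groups, against 1634 in controls. The log2 difference from control was -1.34 (SE 0.31) with stereotypy and -2.35 (SE 0.31) without it, and the mean of both deleted groups differed from control by -1.85 (SE 0.27), or -1.64 without control 3.

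For stereotypy minus no stereotypy, Myo3b differed by 1.01 on the log2(CPM + 1) scale (SE 0.31, 95% interval 0.32 to 1.70). The unadjusted limma p was 0.00825 and the adjusted p was 0.0627, so it missed the threshold, with all 3 stereotypy libraries above all 3 libraries without stereotypy. That order held for 20.8% of all tested genes. The call depended on the setting: edgeR's quasi-likelihood test on recovered reads gave 1.39 with an adjusted p of 0.0432 and DESeq2 gave 1.39 with an adjusted p of 0.00287. Without control 2 the limma adjusted p was 0.0234, and leaving out each library in turn gave differences of 0.70 to 1.16 and adjusted p-values of 0.0234 to 0.220, the lowest difference without stereotypy library 3.

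**Figure D1:**
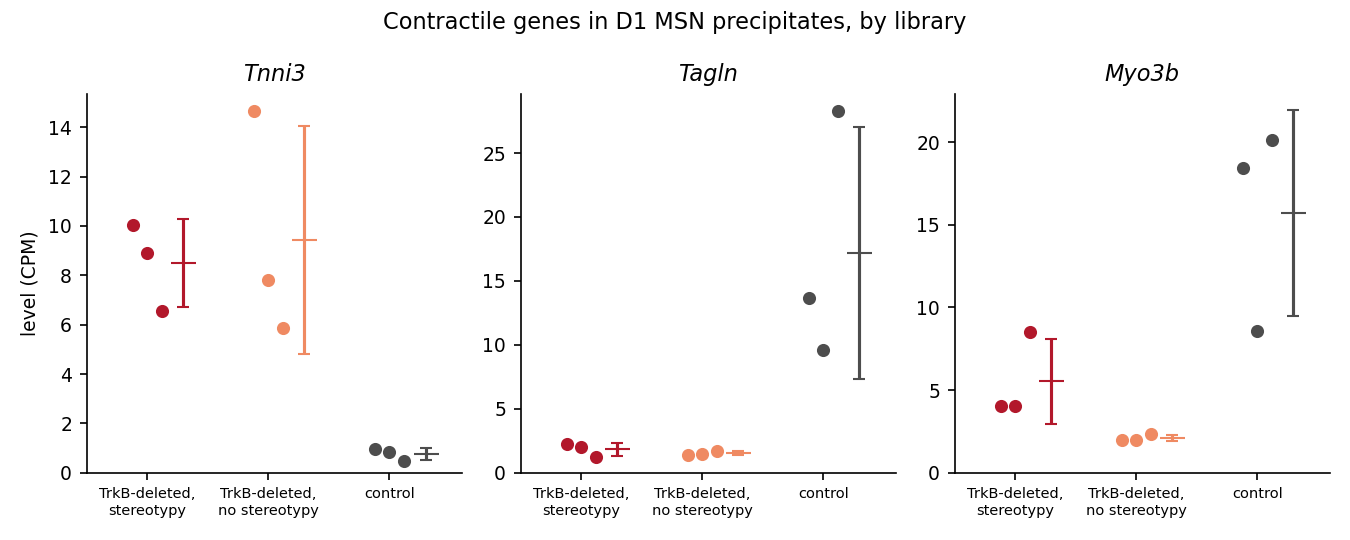
Level in CPM (vertical axes, each from 0) of Tnni3, Tagln and Myo3b in each library, with TrkB-deleted stereotypy libraries left, TrkB-deleted libraries without stereotypy in the middle and controls right; points are libraries, and the horizontal mark and bar give mean and SD (n = 3). Tnni3 lay between 5.87 and 14.7 CPM in the 6 deleted libraries, all above the controls, Tagln and Myo3b lay below the controls in all 6, and Myo3b was higher in each stereotypy library than in each library without stereotypy.

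Taking the 3 together, no deleted library overlapped a control for any of them. Over all tested genes, all 6 deleted libraries lay above the 3 controls for 6.05% and below them for 3.25%. These shares are background only, since the members were picked on that contrast. The mean of both deleted groups passed the threshold against control for 5.72% of tested genes, 3.67% higher and 2.05% lower. Per kilobase of exon the levels were 4.12 and 4.58 CPM per kb for Tnni3 in the deleted groups, against 0.371 CPM per kb in controls. For Tagln they were 0.916 and 0.772 CPM per kb, against 8.64 CPM per kb in controls, and for Myo3b 0.785 and 0.298 CPM per kb, against 2.23 CPM per kb in controls. The order of the members by level per length was thus Tnni3 first in both deleted groups and Tagln first in controls. Tagln and Myo3b in stereotypy libraries were closer than their spread.

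Among the troponin I genes, Tnni3 was the most abundant RNA per length in each deleted library, and Tnni1 in each control. Tnni1, the slow skeletal form, averaged 1.45 ± 0.240 CPM per kb with stereotypy and 0.995 ± 0.240 CPM per kb without it, against 1.26 ± 0.525 CPM per kb in controls (SD, n = 3 each). Its level did not pass the test against control (log2 difference -0.02, limma adjusted p 0.979). Tnni2, the fast skeletal form, was at 0 reads in all but 2 libraries, which held 1 read each. Per length, Tnni3 made up 65.2% to 77.9% of troponin I in stereotypy libraries and 77.6% to 85.7% in libraries without stereotypy, against 17.9% to 32.6% in controls.

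The transgelins gave a different picture, because a neuronal paralog far exceeded Tagln in every library. Tagln3, which is expressed in neurons, averaged 120 ± 17.3 CPM with stereotypy and 168 ± 30.0 CPM without it, against 236 ± 17.0 CPM in controls (SD, n = 3 each). It fell by 0.74 on the log2 scale in the mean of both deleted groups (SE 0.12, limma adjusted p 0.00610), with all 6 deleted libraries below the controls. Per length it held 98.4% to 98.7% of the transgelin family with stereotypy and 99.2% without it, against 93.2% to 97.2% in controls, while Tagln held 0.718% to 1.06% and 0.519% to 0.609%, against 2.68% to 6.60% in controls. Tagln2, the form of many nonmuscle cells, did not pass the test (0.16, limma adjusted p 0.626). Neither did the calponins Cnn2 (-0.00, adjusted p 0.996) and Cnn3 (-0.24, adjusted p 0.264), and Cnn1, the smooth muscle calponin, was too low to be tested. The other class III myosin, Myo3a, had 1 read in control 3 and 0 in the other libraries, so Myo3b was 99.9% to 100% of the class in each library.

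**Figure D2:**
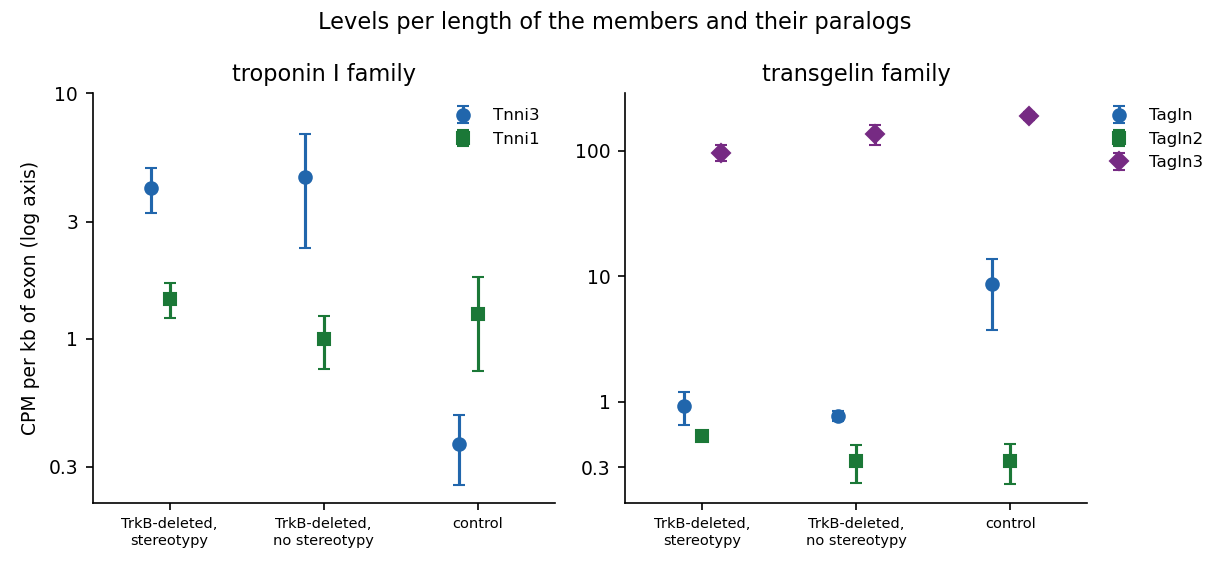
Levels in CPM per kb of exon (log axis) of the troponin I genes Tnni3 and Tnni1 (left) and of Tagln, Tagln2 and Tagln3 (right) in the stereotypy, no stereotypy and control groups; symbols are means and bars SD (n = 3). Tnni3 stands above Tnni1 in both deleted groups and below it in controls, and Tagln3 averages 96.7 CPM per kb or more in every group.

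Genes next to the members were examined because the use of strand in counting is not given in the sources used here, so overlapping genes can share reads. Dnaaf3, a dynein assembly factor gene on the same strand, overlaps 1297 bases of the annotated Tnni3 span, 86 of them in exons of both. It lay between 0.887 and 2.10 CPM in all libraries and did not pass the test against control (0.19, limma adjusted p 0.605). Tnnt1, a troponin T gene 1922 bases from Tnni3 on the same strand, is described with the thin filament below. On the other strand from Tagln, Pcsk7, a proprotein convertase gene, overlaps its last 108 bases, and Pcsk7 did not pass the test (-0.33, adjusted p 0.400). Nor did Sidt2, 1798 bases upstream of Tagln (-0.12, adjusted p 0.592). An antisense gene that shares 1241 exon bases with Tagln, Gm48529, was not analysed here, so reads from the opposite strand cannot be told apart from Tagln. Gm13631, which overlaps the start of Myo3b, was at 0 reads in every library.

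Transgelin marks smooth muscle, so other genes of smooth muscle and of mural cells, which wrap small vessels, were read beside it. Acta2, the smooth muscle actin, was at most 0.321 CPM in any library, Actg2 at most 0.276 CPM, Cnn1 at most 0.274 CPM, Lmod1 at most 0.181 CPM and Des, the muscle intermediate filament, at most 0.322 CPM. Myh11, the smooth muscle myosin heavy chain, reached 1.90 CPM in a stereotypy library and at most 0.679 CPM in controls. Myl9 lay between 0.221 and 0.752 CPM in the 6 deleted libraries, above the controls, which held at most 0.109 CPM. In the controls, where Tagln was 9.59 to 28.3 CPM, 9 of the 14 other genes on the smooth muscle list stayed under 1 CPM in every library and 5 did not. Csrp1, the most abundant of the list per length, had 13.9 to 17.5 CPM with stereotypy and 12.2 to 24.5 CPM without it, against 9.83 to 14.96 CPM in controls, and Synpo2 had 36.0 to 45.5 CPM and 31.1 to 44.3 CPM, against 36.5 to 56.7 CPM in controls. The other 3 were Cald1 at up to 3.34 CPM in controls, Mylk at up to 2.27 CPM and Mrvi1 at up to 1.04 CPM. Of these 5, all but Csrp1 are named after their values were seen. Of the 14 genes, 6 were tested and none passed the threshold in any comparison with limma, edgeR or DESeq2, with 0 at an unadjusted limma p under 0.05. Their median log2 difference, mean of both deleted groups minus control, was 0.33, against 0.04 over all tested genes.

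Markers of mural cells, led by Rgs5, summed to 15.1 to 21.3 CPM with stereotypy and 6.78 to 11.6 CPM without it, against 6.99 to 8.29 CPM in controls, so their order was not that of Tagln. Of the 10, 5 were tested, and 1 rose with stereotypy against control, as 3.58% of all tested genes did. Fibroblast markers summed to 4.48 to 8.13 CPM and 1.48 to 3.85 CPM in the deleted groups, against 1.02 to 3.23 CPM in controls. Endothelial markers summed to 46.4 to 113 CPM and 25.6 to 39.1 CPM, against 24.1 to 49.5 CPM in controls. Astrocyte markers, of which 6 of 9 rose with stereotypy against control (3.58% of all tested genes did), summed to 631 to 658 CPM and 445 to 553 CPM, against 448 to 553 CPM in controls. Oligodendrocyte markers summed to 1166 to 2094 CPM and 744 to 1652 CPM, against 569 to 1148 CPM in controls, and microglial markers to 15.1 to 18.4 CPM and 6.81 to 9.23 CPM, against 8.002 to 16.8 CPM in controls. The glial and vascular sums were higher in stereotypy libraries than in libraries without stereotypy, apart from some overlap for oligodendrocytes, as was Myo3b, and the part of such cells in the Myo3b difference was not tested. The D1 marker sums were higher and the D2 marker sums lower in every stereotypy library than in every library without stereotypy, and their part was not tested either. Remaining Ntrk2 was higher with stereotypy too, and its part in the Myo3b difference was not tested.

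**Figure D3:**
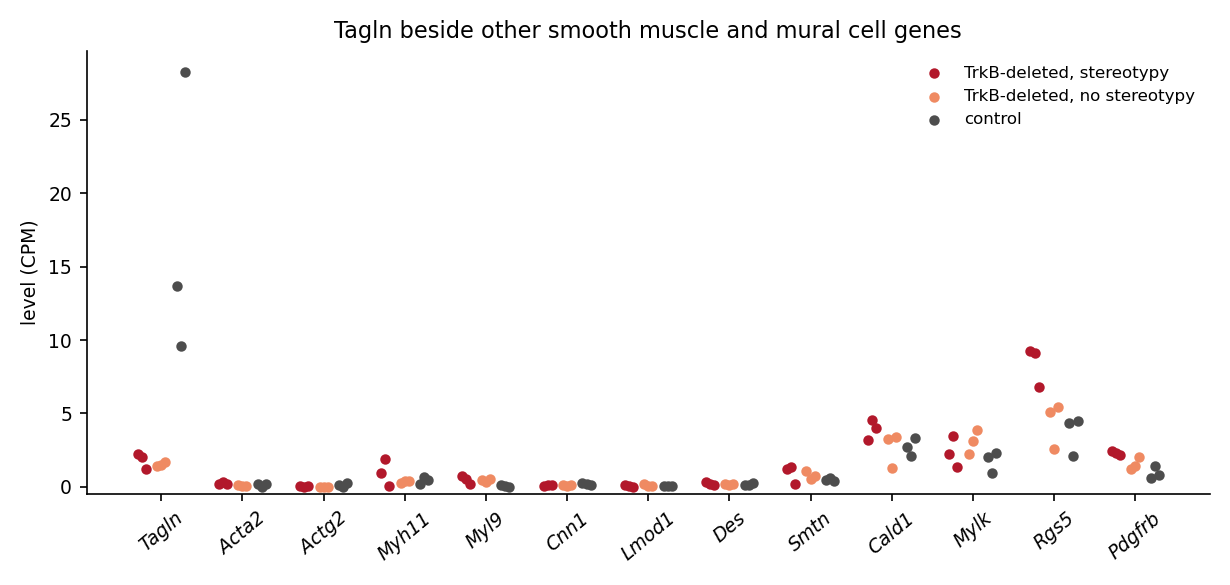
Level in CPM (vertical axis, from 0) of Tagln, of other genes of the contractile apparatus of smooth muscle and of the mural cell markers Rgs5 and Pdgfrb; each point is a library, with stereotypy left, no stereotypy in the middle and control right within a gene. Tagln reaches 28.3 CPM in controls, where Acta2, Actg2, Myh11, Myl9, Cnn1, Lmod1, Des and Smtn stay under 1 CPM while Cald1 reaches 3.34 CPM and Mylk 2.27 CPM; Csrp1 and Synpo2, which are higher, are not plotted.

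The wider contractile machinery was followed with 9 lists that hold 151 other genes with an identifier. The lists were chosen with earlier results of these data known, so their shares beside those of all tested genes are description only. Of these, 81 were tested and 70 were too low. Against control, the mean of both deleted groups was higher for 8 and lower for 3 of the 81 (13.6%, against 5.72% of all tested genes), with a median log2 difference of 0.01, against 0.04 over all tested genes. With stereotypy 6 rose and 1 fell against control (8.64%, against 5.10% of all tested genes, 3.58% higher and 1.53% lower). Without stereotypy 8 rose and 4 fell against control (14.8%, against 6.77% of all tested genes, 3.76% higher and 3.01% lower). The comparisons with control share the same 3 control libraries. The split of calls depended on scaling: over all tested genes 70.1% of calls were higher with stereotypy against control, but 48.1% after median-of-ratios rescaling and 49.9% with edgeR, and for the mean of both deleted groups 64.2% were higher, but 51.3% and 46.6% under the same alternatives. For the 81 contractile genes, the mean of both deleted groups gave 72.7% higher calls, but 58.3% under either alternative, and with stereotypy against control 85.7% higher calls, but 55.6% under either, which is 5 higher and 4 lower.

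For the mean of both deleted groups, thin filament genes gave the most calls of the 9 lists, 4 of 12 tested (33.3%, against 5.72% of all tested genes). These 4 were troponin T and tropomyosin genes. The other 8 tested genes of the list were not called, among them the muscle actin gene Acta1 (-0.29, limma adjusted p 0.196). The same list gave 1 call with stereotypy against control (5.1% of all tested genes passed) and 4 without stereotypy against control (6.77% of all passed). Tnnt2, the cardiac troponin T that anchors troponin to tropomyosin, averaged 7.72 ± 1.55 CPM with stereotypy and 9.29 ± 1.31 CPM without it, against 3.65 ± 1.08 CPM in controls (SD, n = 3 each). It rose by 1.04 on the log2 scale in the mean of both deleted groups (SE 0.17, limma adjusted p 0.00739), with all 6 deleted libraries above the controls. Tpm2, a tropomyosin, averaged 27.0 ± 6.16 CPM and 31.3 ± 13.2 CPM, against 14.1 ± 2.87 CPM in controls, and rose by 0.96 (adjusted p 0.0339). Tnnt1, the slow skeletal troponin T and neighbour of Tnni3, averaged 5.16 ± 1.09 CPM and 8.58 ± 1.30 CPM, against 3.20 ± 1.32 CPM in controls, and rose by 0.90 (adjusted p 0.0268). Tpm1, the most abundant gene of the list per length, averaged 434 ± 20.7 CPM and 392 ± 17.5 CPM, against 543 ± 34.3 CPM in controls, and fell by 0.39 (adjusted p 0.0107).

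For the mean of both deleted groups, the calls of Tnnt2 and Tpm1 stayed past the threshold whichever library was left out. In that comparison, Tpm2 lost its call without control 1, 2 or 3 or stereotypy library 1 or 2 (adjusted p 0.0561 to 0.109). Tnnt1 lost its call there without control 2 or 3, no stereotypy library 1 or 2 or stereotypy library 1 or 2 (0.0581 to 0.0831). Tnnt2 was also called with stereotypy against control (0.92). That call was lost without control 1 or 3, no stereotypy library 1 or stereotypy library 1 or 2 (limma adjusted p 0.0508 to 0.121).

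Among 9 tested thick filament genes, Myh7, the slow and cardiac myosin heavy chain and the most abundant of the list per length, did not pass the test against control (0.05, limma adjusted p 0.918). Myh3, the embryonic heavy chain, averaged 3.14 ± 0.650 CPM with stereotypy and 12.2 ± 6.99 CPM without it, against 3.31 ± 1.11 CPM in controls. It rose without stereotypy against control by 1.52 (adjusted p 0.0171), a call lost without control 1 (1.36, adjusted p 0.0698). Of 7 tested genes of the Z-disc and muscle cytoskeleton, Fhl1, a LIM-domain protein, rose by 0.42 at an adjusted p of 0.0495, just inside the threshold, and it lost the call without any library except control 2 (0.0553 to 0.157) and with edgeR or rescaling (0.0926 and 0.0829). Actn2, the Z-disc actinin that also sits in dendritic spines and the most abundant of that list per length, did not pass (0.02, adjusted p 0.961).

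The 5 tested genes of calcium handling had a median log2 difference of -0.33 for the mean of both deleted groups minus control, against 0.04 over all tested genes. Of them 1 fell in that comparison, as 2.05% of all tested genes did. Without stereotypy against control 3 fell, as 3.01% of all tested genes did, and none rose in either. Ryr1, the skeletal ryanodine receptor, averaged 15.8 ± 0.922 CPM with stereotypy and 7.98 ± 1.66 CPM without it, against 24.6 ± 9.39 CPM in controls (SD, n = 3 each). In the mean of both deleted groups it fell by 0.99 on the log2 scale (limma adjusted p 0.0250), a call lost without control 1 or 3 or any one stereotypy library (0.0511 to 0.101). Casq2, the cardiac calsequestrin that buffers calcium in the reticulum, averaged 5.40 ± 3.09 CPM and 1.29 ± 0.898 CPM, against 7.80 ± 3.70 CPM in controls. It fell by 1.93 without stereotypy against control (adjusted p 0.0141, or 0.0654 without no stereotypy library 1), and for the mean of both deleted groups it lay just outside the threshold (-1.21, adjusted p 0.0579). Jph1, a junctophilin, also lay just outside (-0.33, adjusted p 0.0541). Its call without stereotypy against control (-0.46, adjusted p 0.0249) was lost without control 1 or 2 or no stereotypy library 1 or 2 (0.0556 to 0.118), and it is named after its values were seen.

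For the mean of both deleted groups, unconventional myosins, the family of Myo3b, gave 2 calls among 15 tested genes. That is 13.3%, against 5.72% of all tested genes. Both calls were opposite in direction to Myo3b. Myo16 averaged 27.2 ± 3.93 CPM with stereotypy and 37.9 ± 4.03 CPM without it, against 15.8 ± 3.09 CPM in controls (SD, n = 3 each), and rose by 0.99 on the log2 scale in the mean of both deleted groups (SE 0.14, limma adjusted p 0.00280). Myo6, which moves toward the minus end of actin filaments, averaged 18.2 ± 4.90 CPM and 10.8 ± 1.01 CPM, against 7.05 ± 1.16 CPM in controls, and rose by 0.89 (SE 0.17, adjusted p 0.0114). Both calls held without any single library. Morn4, a partner of class III myosins and the tested one of 3 such genes, did not pass against control (-0.02, adjusted p 0.936). Of 20 nonmuscle actomyosin genes, Myh9, a nonmuscle myosin II heavy chain, rose by 0.63 (adjusted p 0.0182, or 0.0684 without control 1), besides the fall of Tagln3. None of 6 tested genes of serum response factor and its coactivators, which drive many muscle genes including Tagln, passed the threshold in any comparison with limma, edgeR or DESeq2 (1 at an unadjusted limma p under 0.05 in each), and Srf differed by -0.18 (adjusted p 0.309).

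**Figure D4:**
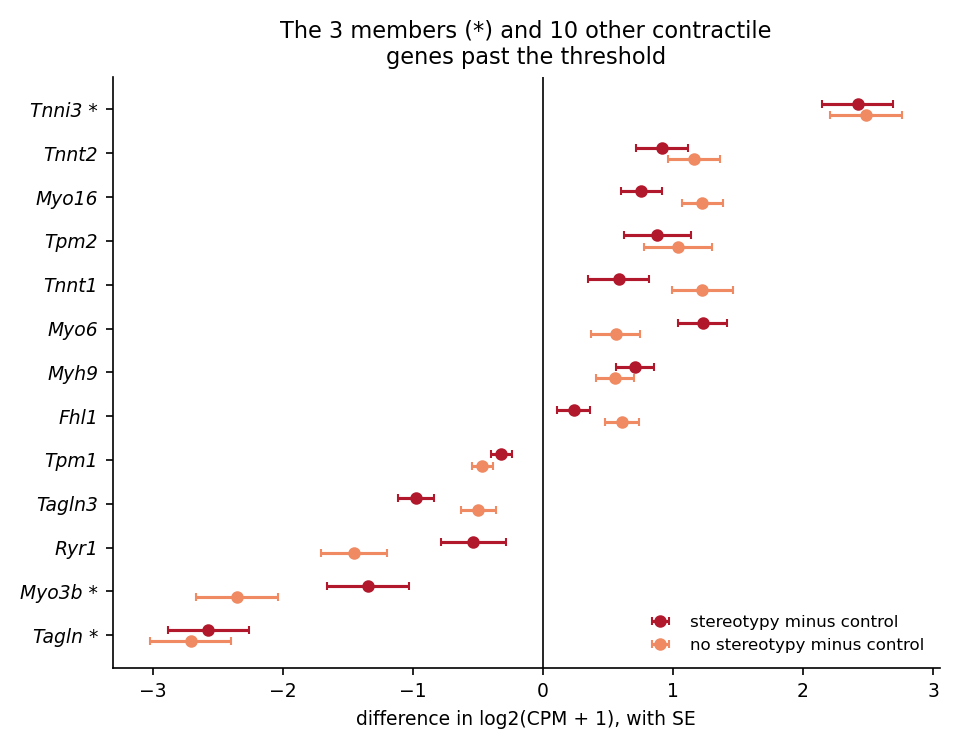
Difference in log2(CPM + 1) from control (horizontal axis, points with SE bars) with stereotypy (upper point of each gene) and without stereotypy (lower point) for the 3 members, marked by asterisks, and 10 of the 11 other contractile genes past the threshold for the mean of both deleted groups. Tnni3 at 2.42 and 2.49 and Tagln at -2.57 and -2.71 lie at the ends, and Myo3b lies at -1.34 with stereotypy and -2.35 without it.

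Between the deleted groups, 11 of the 81 other contractile genes passed the threshold, 6 higher and 5 lower with stereotypy (13.6%, against 10.2% of all tested genes). For stereotypy minus no stereotypy, Casq2 (1.44, limma adjusted p 0.0402), Ryr1 (0.92, 0.0444) and Myo6 (0.67, 0.0495) were higher, as was Rock1, a kinase that promotes actomyosin contraction (0.72, 0.0269). Myl4, an atrial light chain (-1.74, 0.0488), Myh3 (-1.56, 0.0227), the LIM-domain gene Fhl2 (-0.62, 0.0439), Tagln3 (-0.48, 0.0495) and Morn4 (-0.35, 0.0359) were lower. None of the 11 stayed past the threshold without no stereotypy library 1 or 2 or stereotypy library 2 or 3, and of all 1398 genes called, 0 or 1 did. Without no stereotypy library 3, stereotypy library 1 and control 1, 4, 5 and 7 of the 11 stayed.

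Across the 9 libraries, the genes whose log2 level followed a member most closely were ranked among 9709 protein-coding genes with a mean of at least 5 CPM. The libraries share group and depth, so the coefficients only describe. Nearest to Tnni3 were Ceacam10 (Pearson r 0.983), Cryz (0.978), Trpv6 (0.976), Chst2 (0.975) and Pgam2, the muscle phosphoglycerate mutase (0.975). Nearest to Tagln were Grb14 (0.963), Cacng2 (0.962), Spred3 (0.959), Vat1l (0.957) and the deleted gene Ntrk2 itself (0.945). Nearest to Myo3b were E2f3 (0.981), Anks1b (0.980), Trib2 (0.974), Nckap1 (0.972) and Il1rapl2 (0.972). Among the members, r was -0.933 for Tnni3 with Tagln, -0.856 for Tnni3 with Myo3b and 0.856 for Tagln with Myo3b. The members were chosen for their differences from control in these libraries, which largely set these values in advance. The order within a group did not follow these coefficients for every member: control 3 was lowest for Tnni3 and highest for both Tagln and Myo3b, while stereotypy library 3 was lowest for Tnni3 and Tagln and highest for Myo3b in its group.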

How the data were processed

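The authors deposited 1 table of CPM per library. TopHat and GRCm38 are the tool and build named in the submitters' processing notes; how reads were counted, with which annotation and with what use of strand, is not given in these sources. The deposited values are whole multiples of 1 read (100% within 0.1 reads), so whole reads were recovered for the count tests. Positions, exon lengths and neighbours come from GENCODE M21, which matched 47310 identifiers (99.12%). All 9 libraries entered 1 limma fit (3.58.1, R 4.3.3) on log2(CPM + 1), with a trended variance (6 residual degrees of freedom), for genes reaching 1 CPM in 3 or more libraries. P-values were adjusted by Benjamini-Hochberg (threshold 0.05) and measure only the spread between these libraries. The fit was tested on simulated data. Alternatives were pseudocounts of 0.25 and 4, an absent or a stricter filter (mean of 5 CPM), rescaling by median of ratios, edgeR 4.0.16, DESeq2 1.42.0, a replicate block and leaving out each library.

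The members and lists were chosen with earlier results of these data known. Named genes are the members, their paralogs and genes within 5 kb, the most abundant gene of each list per length, up to 2 risers and 2 fallers past the threshold per list and comparison, the 5 nearest genes by r, and Ntrk2. Jph1 and 4 smooth muscle genes were added later, and 2 genes that the rule picked are not reported here. Of 6 listed D2 markers, 5 were used. Promoter sequences are from RefSeq.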

Additional observations from a re-analysis of the deposited data

How the results depend on the processing

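The members kept their direction against control in all 17 alternatives. For the mean of both deleted groups, Tnni3 (2.45) moved to 3.49 with DESeq2 and 3.49 with edgeR, 3.15 with a pseudocount of 0.25 and 1.41 with 4; Tagln (-2.64) to -3.41 with DESeq2, -3.40 with edgeR and -1.80 with a pseudocount of 4; and Myo3b (-1.85) to -1.33 with a pseudocount of 4. Leaving out each library gave 2.28 to 2.58 for Tnni3, -2.96 to -2.23 for Tagln and -2.21 to -1.64 for Myo3b. A pseudocount changes the scale itself, and low counts limit Tnni3 in controls.

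Between the deleted groups, leaving out each library gave -0.32 to 0.27 for Tnni3, 0.03 to 0.30 for Tagln and 0.70 to 1.16 for Myo3b. The Myo3b difference passed the threshold with DESeq2 (1.39), edgeR (1.39), a pseudocount of 0.25 (1.21) and the replicate block (1.01, limma adjusted p 0.0321). Replicate numbers were not taken to pair libraries: deviations of same-numbered libraries correlated at -0.0798 to 0.406, over 0.1 in 4 of 9 pairs. Deviations of differently numbered libraries correlated at -0.422 to 0.247, over 0.1 only for stereotypy 2 with control 3 (0.175) and no stereotypy 1 with control 2 (0.247). These ranges overlap, but the highest value came from a same-numbered pair, so the check cannot settle a pairing. With the replicate block, contractile genes called with stereotypy against control numbered 11, not 7. All genes called between the deleted groups numbered 1788, not 1398.

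Other contractile genes called numbered 7 for mice with stereotypy and 12 for mice without it, each set against control, 11 between the deleted groups, and 11 for both deleted groups together; counts below keep this order. Without the filter, which also brought more genes into the test, these were 3, 6, 3 and 6. DESeq2 gave 17 in the first and 18 in the last, and a pseudocount of 4 gave 7 in the third. Leaving out each library gave 3 to 9, 7 to 12, 0 to 17 and 7 to 11. Over all genes, 699, 927, 1398 and 784 calls became 1522, 1509, 2343 and 1326 with DESeq2 and 330, 484, 572 and 392 without the filter, and 124 to 803, 316 to 933, 0 to 1988 and 414 to 732 when each library was left out. The cause was not tested. For stereotypy against no stereotypy, 64.7% of calls were higher, but 49.7% after rescaling.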
